A study of Homo sapiens with 3 samples.

Results

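The BCL2 family genes described here are 10 genes taken by name: the anti-apoptotic members BCL2, BCL2L1 and MCL1, the effectors BAX and BAK1, and the BH3-only members BAD, BID, BIK, BBC3 and PMAIP1. Every probe set annotated to one of these symbols and to no other gene was used, which gave 35 of the 49388 probe sets on the array. Each probe set was read on its own on all 3 arrays.

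Proteins of this family decide whether the outer membrane of mitochondria stays closed. BAX and BAK1 form the pores through which cytochrome c leaves the organelle, BCL2, BCL-XL (the product of BCL2L1) and MCL1 bind them and keep the membrane intact, and BH3-only proteins, which share a single homology domain with the others, either occupy the anti-apoptotic proteins or act on the effectors directly. BBC3 is also called PUMA and PMAIP1 NOXA.

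LNCaP, a prostate cancer cell line of human origin, was transfected with 75 nM of HOXD-AS1 siRNA 1, HOXD-AS1 siRNA 2 or a negative control siRNA, and RNA was taken after 48 h. HOXD-AS1 is a long non-coding RNA of the HOXD gene cluster, and the series looked for genes that differ from the control with both siRNAs. Each of the 3 groups held 1 array, so no difference below has a replicate check, none was tested, and precision is limited by having so few arrays. The source labels name the cells LNCaP-Bic for siRNA 1, LNCaP-AI for siRNA 2 and LNCaP for the control, while the cell line label gives LNCaP for all, so cells of different names and different siRNAs cannot be told apart. The siRNAs are printed as the labels give them, with no part marked, because they are the designed difference between the arrays. The labels do not say which strand is shown. The label for their target positions, 588 for siRNA 1 and 1290 for siRNA 2, names the coding sequence of WDR5, a different gene, while the siRNA label and the titles name HOXD-AS1, so the labels do not settle what the sequences target.
HOXD-AS1 siRNA 1: gaaagaaggaccaaaguaauu
HOXD-AS1 siRNA 2: gcccuuucugaccugcuuauu
control siRNA: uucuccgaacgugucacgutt

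The targeted transcript was not analysed here, since 0 probe sets carried HAGLR, as HOXD-AS1 is now called. A label called inhibition rate reads 0.23 for siRNA 1, 0.25 for siRNA 2 and 1 for the control itself. Its assay is not named, and a remaining level and a removed part cannot be told apart from it. The 2 WDR5 probe sets differed from the control by -0.34 to -0.14 with siRNA 1 and by -0.17 to -0.13 with siRNA 2. Values are intensities on a linear scale, and differences are log2 intensities of a siRNA array minus the control array. Intensities under the floor of 25.96, the median of all values on the 3 arrays, were raised to it, and a probe set above the floor on at least 1 array is called measured. The arrays had median intensities between 25.7 and 26.1. The median size of the difference between the siRNA arrays, over all measured probe sets, was 0.20 on the log2 scale. As a check of the cell type, 7 of 10 luminal prostate markers had a probe set, and all 7, among them KLK3 and KLK2, were above the floor on every array, at 715 or more. Of the leukocyte markers 4 had a probe set, and 0 of these were above the floor. One basal marker, KRT14, and 2 stromal ones, COL1A1 and COL3A1, were measured, at 55.9 or less. The summed intensity of the luminal markers was 14803 with siRNA 1, 12198 with siRNA 2 and 13879.9 in the control. That of the stromal and endothelial markers was 97.3 with siRNA 1, 130.1 with siRNA 2 and 90.8 in the control. The part of either in the differences below was not tested.

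Of the 35 BCL2 family probe sets, 27 were measured, 26 of them above the floor on all 3 arrays. They covered 9 of the 10 genes, all but BCL2. BBC3 was the member farthest from the control, more than 2-fold higher with siRNA 1 in 1 of its 2 probe sets, and both PMAIP1 probe sets were higher with both siRNAs. The arrays read whole cultures, so a larger share of cells with a transcript and more of it per cell cannot be told apart. BAX and BIK were also higher with both siRNAs in each of their probe sets, BAD was lower in both of its probe sets, and BID went up with siRNA 1 and down with siRNA 2 in all 4. The anti-apoptotic gene BCL2L1 was higher in some probe sets and lower in 1. MCL1 was higher in some and near the control in 1. It was lower with both siRNAs only in 1 probe set, which passed the floor through the control alone.

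**Figure D1:**
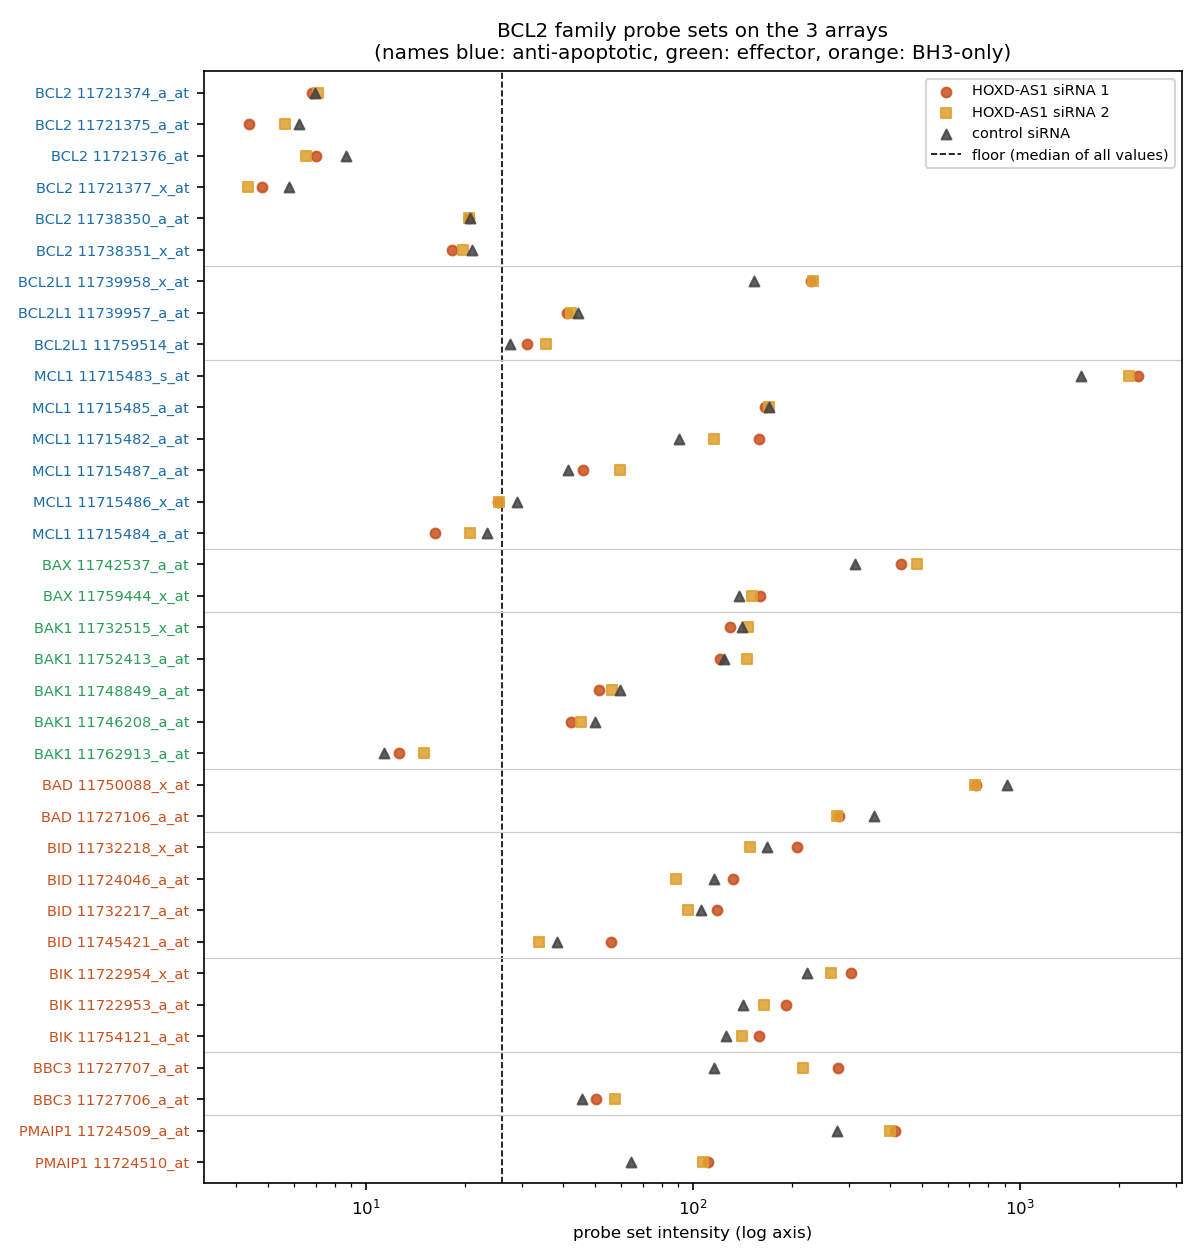
Intensity of each of the 35 BCL2 family probe sets (log axis) with HOXD-AS1 siRNA 1, HOXD-AS1 siRNA 2 and the control siRNA, 1 array each, grouped by gene. The dashed line is the floor of 25.96; all 6 BCL2 probe sets lie to its left on every array, while the control triangles of PMAIP1 lie left of both siRNA symbols and those of BAD lie right of them.

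A difference of 1.5-fold or more (0.585 on the log2 scale) was reached upwards by 3 of the 27 measured probe sets with siRNA 1, or 11.1%, where 6.57% of all 23896 measured probe sets with 1 gene reached it. This count was 6 after scaling to a common median, where 7.05% of all measured probe sets reached 1.5-fold. With the floor at the 75th percentile it was 1, against 5.88% of all, with fewer member probe sets measured. With siRNA 2 a 1.5-fold difference was reached upwards by 4 of 27, or 14.8%, against 3.98% of all. Both siRNAs reached it in 2 probe sets, 1 of BBC3 and 1 of PMAIP1, where 1.59% of all probe sets did. With the floor at the 75th percentile both reached it in 1, against 1.46% of all. No member probe set was lower by 1.5-fold or more with either siRNA (0 of 27 each), where 5.65% of all probe sets were with siRNA 1 and 5.22% with siRNA 2. At 2-fold, 1 of 27 was higher with siRNA 1 (1.18% of all) and 0 of 27 with siRNA 2 (0.695% of all). Counting any size, 14 of 27 were higher in both siRNA arrays (31.8% of all), 6 were lower in both (33.7% of all) and 7 went opposite ways (30.4% of all). Probe sets of a gene were read from the same RNA and both siRNAs share 1 control array, so these counts are not of independent events.

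The 1.5-fold line runs through a cluster of members. With siRNA 1 the lowest probe set past it was one of PMAIP1 at 0.79, and just short of it were the other PMAIP1 probe set at 1.499-fold, one of BCL2L1 at 1.498-fold and one of MCL1 at 1.493-fold. With siRNA 2 the lowest past it was one of BCL2L1 at 0.60, followed below it by probe sets of MCL1 and PMAIP1 at 0.53 each.

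**Figure D2:**
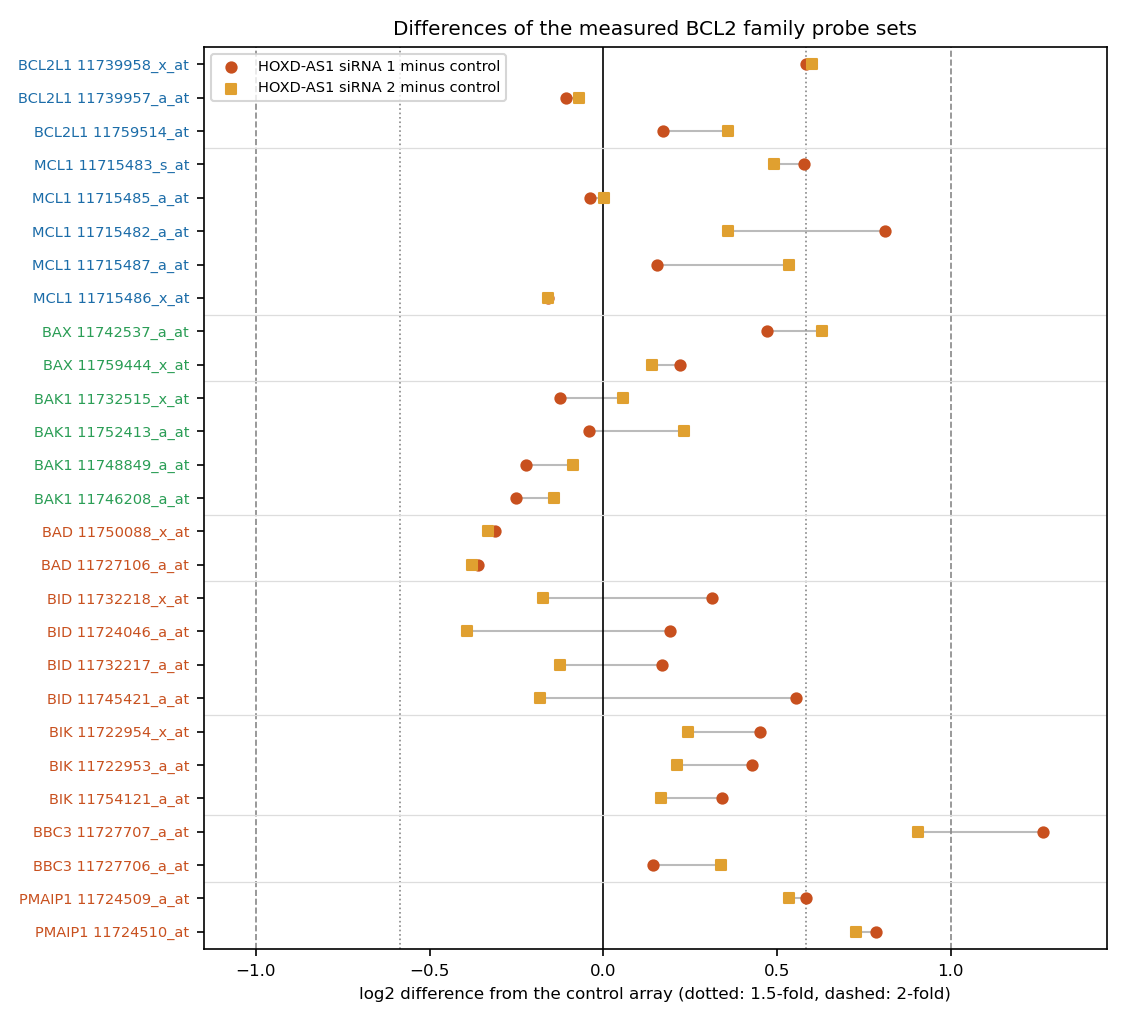
Log2 difference from the control array with HOXD-AS1 siRNA 1 (circles) and siRNA 2 (squares) for the 27 measured BCL2 family probe sets. Dotted and dashed lines mark 1.5-fold and 2-fold; BBC3 11727707_a_at lies farthest right at 1.26 and 0.91, and the 4 BID probe sets have their circles right of 0 and their squares left of it.

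Among the anti-apoptotic genes, BCL2, the founding member of the family, was not measured. Its 6 probe sets read between 4.37 and 20.7 with siRNA 1, between 4.35 and 20.7 with siRNA 2 and between 5.81 and 21.0 in the control. All lay under the floor, so no difference is given, and a reading under the floor does not show that the transcript is missing.

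BCL2L1 encodes BCL-XL and, by alternative splicing, the shorter pro-apoptotic BCL-XS. Its probe set 11739958_x_at read 229 with siRNA 1 and 232 with siRNA 2, against 153 in the control, differences of 0.58 and 0.60. Both siRNA arrays were high and close to each other. The probe set 11739957_a_at read 41.2 and 42.3 with siRNAs 1 and 2, against 44.3 in the control, differences of -0.11 and -0.07. The probe set 11759514_at, close to the floor, read 31.1 and 35.4 against 27.6, differences of 0.17 and 0.36. The BCL2L1 probe sets therefore spanned 0.69 with siRNA 1 and 0.67 with siRNA 2 on the log2 scale, with 11739957_a_at and 11759514_at both dim. By the array's naming convention, a suffix _x_at marks probe sets with probes that also match other sequences and _s_at those shared between transcripts of different genes or a gene family, whereas _at and _a_at sets are specific to a gene.

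MCL1, a short-lived anti-apoptotic protein whose gene is also spliced to a pro-apoptotic short form, had 6 probe sets. The probe set 11715483_s_at read 2287 with siRNA 1 and 2155 with siRNA 2, against 1532 in the control, differences of 0.58 and 0.49. The probe set 11715482_a_at read 159 and 116 with siRNAs 1 and 2, against 90.5 in the control, differences of 0.81 and 0.36. In both of these the siRNA arrays lay above the control. The probe set 11715487_a_at read 45.9 and 59.8 against 41.3, differences of 0.15 and 0.53, so here siRNA 2 was the higher. The probe set 11715485_a_at read 165.6 and 170.4 against 170.1, differences of -0.04 and 0.00, and so showed next to no difference. The probe set 11715486_x_at was measured through the control alone, at 29.0, with both siRNA arrays just under the floor at 25.3 and 25.5, and 11715484_a_at lay under the floor on every array. By probe set, MCL1 therefore ranged up to 0.81 with siRNA 1 and 0.53 with siRNA 2. The lowest values among its probe sets above the floor on all 3 arrays were -0.04 and 0.00. The -0.16 of 11715486_x_at with both siRNAs was the control minus the floor, not a difference between 2 readings above it. Which splice form each probe set reads is not given in the annotation used here.

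Of the effectors, BAX was higher with both siRNAs and BAK1 was not. BAX probe set 11742537_a_at read 433 with siRNA 1 and 484 with siRNA 2, against 312 in the control, differences of 0.47 and 0.63. Its other probe set, 11759444_x_at, read 160.4 and 152 against 138, differences of 0.22 and 0.14. Both BAX probe sets had the control as the lowest array, but the second by an amount close to the typical gap between the siRNA arrays. BAK1, which encodes the effector that resides constantly in the mitochondrial membrane, had 4 measured probe sets, from -0.25 to -0.04 with siRNA 1 and from -0.14 to 0.23 with siRNA 2. Its probe set 11732515_x_at read 129.7 with siRNA 1, 147 with siRNA 2 and 141 in the control. All 4 were lower with siRNA 1, and 2 were lower with both. The BAX difference exceeded that of BAK1 by 0.59 with siRNA 1 and 0.57 with siRNA 2, taking for each gene its probe set of highest average log2 level, and by 0.51 and 0.37 as means over probe sets.

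The BH3-only gene BBC3 encodes PUMA, which binds all the main anti-apoptotic members. Its probe set 11727707_a_at read 278 with siRNA 1 and 217 with siRNA 2, against 116 in the control, or 2.40-fold and 1.87-fold higher. Of all measured probe sets, 0.398% were as high or higher relative to the control with siRNA 1 and 0.937% with siRNA 2. For the second BBC3 probe set these shares were 33.1% and 12.1%. The other BBC3 probe set, 11727706_a_at, read 50.5 and 57.8 against 45.7, differences of 0.14 and 0.34. The control was the lowest array in both, but the probe sets differed from each other by 1.12 with siRNA 1 and 0.57 with siRNA 2, a wider gap with siRNA 1 than in any other member gene.

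PMAIP1 encodes NOXA, whose main partner is MCL1. Its probe set 11724509_a_at read 414 with siRNA 1 and 399 with siRNA 2, against 276 in the control, differences of 0.58 and 0.53. The probe set 11724510_at read 111 and 107 against 64.5, differences of 0.79 and 0.73. The siRNA arrays lay within 0.06 of each other in both probe sets, and both lay above the control. Of all measured probe sets, 2.90% were as high relative to the control as 11724510_at with siRNA 1 and 2.00% with siRNA 2. For 11724509_a_at these shares were 6.59% and 5.14%.

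BIK, a BH3-only protein of the endoplasmic reticulum, was higher in all 3 of its probe sets. They differed from the control by 0.34 to 0.45 with siRNA 1 and by 0.17 to 0.24 with siRNA 2, and siRNA 1 was the higher in each. The probe set 11722954_x_at read 304 with siRNA 1 and 263 with siRNA 2, against 223 in the control. The 3 probe sets were close to one another, within 0.11 with siRNA 1 and 0.08 with siRNA 2.

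BAD, which is held inactive by phosphorylation through survival kinases, was the one member gene that was lower in every measured probe set with both siRNAs. Its probe set 11750088_x_at read 736 with siRNA 1 and 726 with siRNA 2, against 913 in the control, differences of -0.31 and -0.33. The probe set 11727106_a_at read 279 and 276 against 358, differences of -0.36 and -0.38. Both siRNA arrays were low by nearly the same amount, and the probe sets lay within 0.05 of each other. Differences this low were not rare: 16.5% of all measured probe sets were as low as 11750088_x_at with siRNA 1 and 15.99% with siRNA 2.

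BID is the BH3-only protein that caspase 8 cleaves, which links death receptors to mitochondria. Its probe set 11732218_x_at read 208 with siRNA 1 and 149 with siRNA 2, against 168 in the control, differences of 0.31 and -0.17. The probe set 11745421_a_at read 56.1 and 33.7 against 38.2, differences of 0.55 and -0.18. In all 4 BID probe sets siRNA 1 was the highest array and siRNA 2 the lowest, with differences from the control of 0.17 to 0.55 and of -0.39 to -0.13. The siRNA 1 array exceeded the siRNA 2 array by 0.29 to 0.74.

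**Figure D3:**
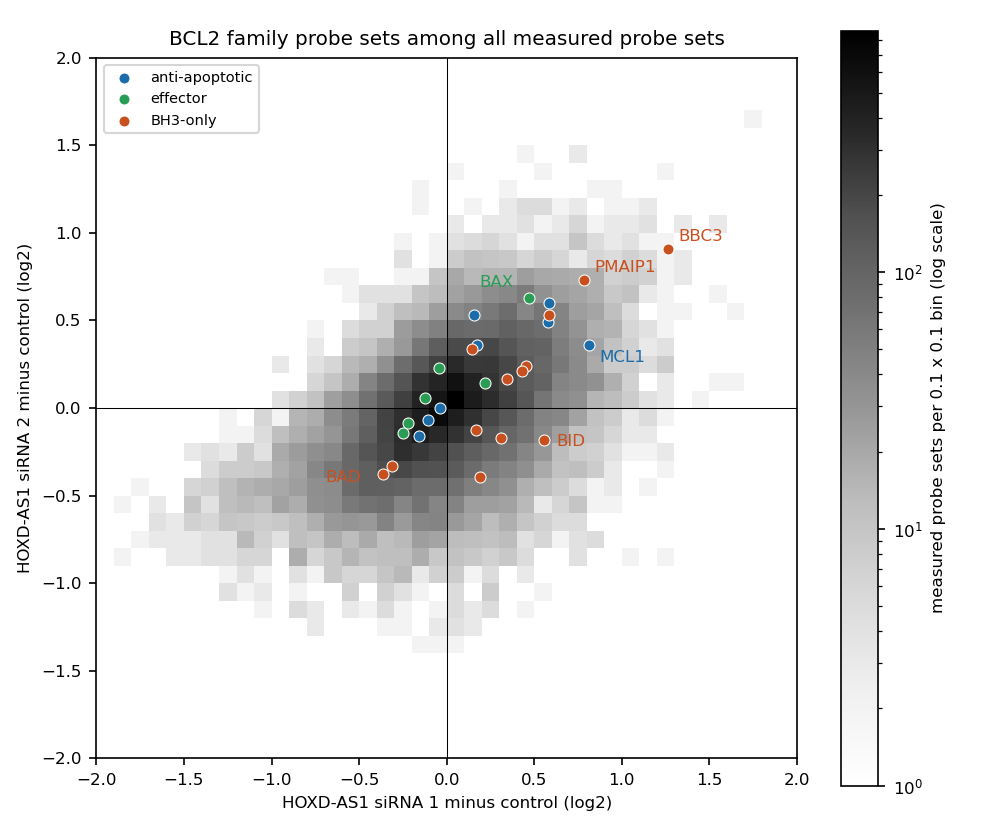
Log2 difference from the control with HOXD-AS1 siRNA 1 (horizontal) and siRNA 2 (vertical), with all measured probe sets as grey bins (38 of 23896 lie outside the axes) and the 27 BCL2 family probe sets as points coloured by class. Both axes share the control array. The BBC3 probe set at 1.26 and 0.91 lies farthest to the upper right among the member probe sets, and grey bins lie beyond it on both axes.

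Set side by side by class, the order of the classes depended on which probe sets stood for the anti-apoptotic genes. With 1 probe set per gene, the median difference of the 2 measured anti-apoptotic genes was 0.58 with siRNA 1 and 0.55 with siRNA 2, that of the 2 effectors 0.17 and 0.34, and that of the 5 BH3-only genes 0.45 and 0.24. The median over all 11286 measured genes was 0.00 and 0.01. The BH3-only median minus the anti-apoptotic one was -0.13 with siRNA 1 and -0.30 with siRNA 2, and the effector median minus the anti-apoptotic one -0.41 and -0.20. These anti-apoptotic values rest on 1 _x_at probe set of BCL2L1 and 1 _s_at probe set of MCL1. With _s_at and _x_at sets left out (called plain probe sets in the plot of class medians by setting, _a_at sets included) the anti-apoptotic median was -0.073 with siRNA 1 and -0.033 with siRNA 2, and as a mean over all measured probe sets of a gene 0.24 and 0.27. The BH3-only medians were 0.43 and 0.21 without such sets, and 0.41 and 0.21 as means over probe sets. The effector medians were 0.21 and 0.43 without such sets, and 0.09 and 0.20 as means. The sign between the classes therefore turned: without such sets the BH3-only median lay above the anti-apoptotic one by 0.50 with siRNA 1 and 0.25 with siRNA 2, and the effector median by 0.29 and 0.46. On the anti-apoptotic side this rests on 11739957_a_at of BCL2L1, which was dim, and 11715485_a_at of MCL1. The other measured plain sets of these genes were higher with both siRNAs. They were 11759514_at of BCL2L1 (0.17 and 0.36) and, of MCL1, 11715482_a_at (0.81 and 0.36) and 11715487_a_at (0.15 and 0.53). As means over probe sets, BH3-only minus anti-apoptotic was 0.17 and -0.06, and effector minus anti-apoptotic -0.15 and -0.07.

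**Figure D4:**
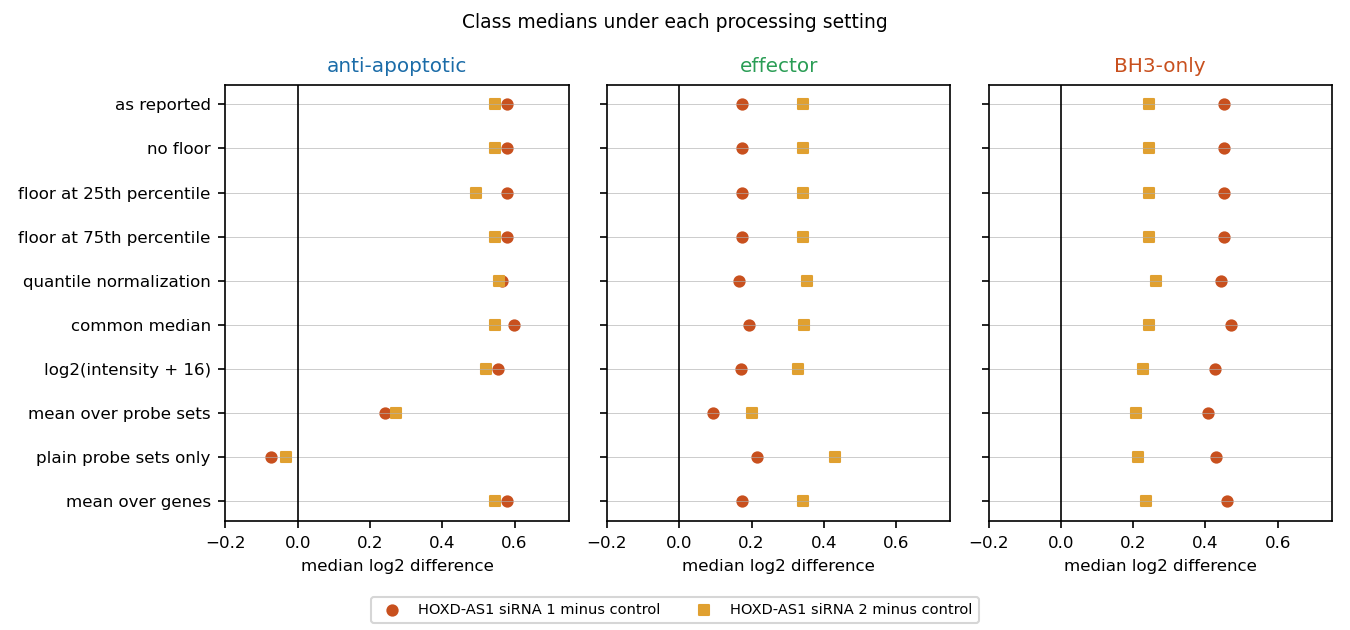
Median log2 difference from the control of the anti-apoptotic, effector and BH3-only genes with HOXD-AS1 siRNA 1 (circles) and siRNA 2 (squares), 1 row for each processing setting. The anti-apoptotic medians move from 0.58 and 0.55 as reported to -0.073 and -0.033 with plain probe sets only; the effector and BH3-only medians are above 0 in every row.

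Between single genes, the BBC3 difference exceeded that of MCL1 by 0.69 with siRNA 1 and 0.41 with siRNA 2, and that of BCL2L1 by 0.68 and 0.30. The PMAIP1 difference exceeded that of MCL1 by 0.01 and 0.04. The BAX difference was 0.11 under that of BCL2L1 with siRNA 1 (-0.11) and 0.03 above it with siRNA 2. The BAD difference minus that of BCL2L1 was -0.90 and -0.93. These gaps rest on the same BCL2L1 and MCL1 probe sets and were recomputed without _s_at and _x_at sets, an alternative chosen after seeing the data. PMAIP1 then exceeded MCL1 by 0.62 and 0.53, BBC3 exceeded MCL1 by 1.30 and 0.90 and BCL2L1 by 1.37 and 0.97, and BAX exceeded BCL2L1 by 0.58 and 0.70. BAD minus BCL2L1 shrank to -0.25 and -0.31. For BCL2L1 and MCL1 these recomputed gaps rest on 11739957_a_at and 11715485_a_at. For BBC3 the gaps before and after recomputing rest on 11727707_a_at. Its other probe set, 11727706_a_at, differed from the control by 0.14 with siRNA 1 and 0.34 with siRNA 2. That lay under 11715483_s_at of MCL1 (0.58 and 0.49) and 11739958_x_at of BCL2L1 (0.58 and 0.60), the reverse of the reported gaps. It lay above 11715485_a_at of MCL1 (-0.04 and 0.00) and 11739957_a_at of BCL2L1 (-0.11 and -0.07). As means over probe sets PMAIP1 exceeded MCL1 by 0.42 and 0.39, BBC3 exceeded MCL1 by 0.43 and 0.38, BAX exceeded BCL2L1 by 0.13 and 0.09, and BAD minus BCL2L1 was -0.55 and -0.65.

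The 250 bases before the transcription start were read from RefSeq (GRCh38.p14) for the 8 member genes with a promoter record, 14 records in all, and those of 3 genes that were higher with both siRNAs and of BAD are shown, to set the promoters of genes that differed in opposite directions beside each other. Capitals mark the GC box, spelled GGGCGG, on either strand. They also mark the CCAAT box, with those letters, and the E-box, whose letters are CACGTG. The search also covered the TATA box, spelled TATAAA. It further covered the cAMP response element, spelled TGACGTCA. An E2F site was searched too, with the letters TTTCGCGC. None of the motifs named here without capitals is in the 4 windows. In the BAX window a GC box lies next to an E-box without overlapping it.
BBC3, chr19:47232668-47232917, minus strand: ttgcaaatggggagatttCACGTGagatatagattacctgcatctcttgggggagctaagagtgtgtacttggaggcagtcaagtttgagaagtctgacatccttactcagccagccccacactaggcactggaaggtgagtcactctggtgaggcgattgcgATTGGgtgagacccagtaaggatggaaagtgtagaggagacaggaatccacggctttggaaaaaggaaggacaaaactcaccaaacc
PMAIP1, chr18:59899746-59899995, plus strand: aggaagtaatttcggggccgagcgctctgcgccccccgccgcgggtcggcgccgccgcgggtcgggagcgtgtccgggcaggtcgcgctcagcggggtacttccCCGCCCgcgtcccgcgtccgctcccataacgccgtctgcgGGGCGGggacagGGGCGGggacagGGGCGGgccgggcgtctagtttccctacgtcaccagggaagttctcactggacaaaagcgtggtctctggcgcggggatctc
BAX, chr19:48954625-48954874, plus strand: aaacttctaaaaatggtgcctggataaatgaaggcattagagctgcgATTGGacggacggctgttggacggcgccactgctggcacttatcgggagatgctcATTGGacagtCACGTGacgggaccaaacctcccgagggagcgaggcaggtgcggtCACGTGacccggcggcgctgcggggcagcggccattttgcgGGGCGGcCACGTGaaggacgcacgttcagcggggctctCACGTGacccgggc
BAD, chr11:64284705-64284954, minus strand: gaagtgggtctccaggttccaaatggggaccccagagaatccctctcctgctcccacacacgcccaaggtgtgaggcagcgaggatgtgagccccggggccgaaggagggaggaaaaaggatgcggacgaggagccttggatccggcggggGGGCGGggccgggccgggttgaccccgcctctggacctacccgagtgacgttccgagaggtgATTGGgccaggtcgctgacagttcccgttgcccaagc

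The BAX window held 4 E-boxes, a motif that at least once is in 6.34% of the 35116 promoter records and 4 or more times in 0.0142% of them. The PMAIP1 window held 4 GC boxes, and 7.63% of records hold 4 or more, while the BBC3 window held none. Some BID records, not shown, held 4 as well. GC boxes were in 42.6% of all records and in 9 of the 14 member records. CCAAT boxes were in 32% of all and in 5 of the 14. The BAD window, like the BAX window, held both motifs. The GC content was 49.2% for BBC3, 72.8% for PMAIP1, 62.8% for BAX and 66.4% for BAD, with a median of 58% over all records. None of the motifs named was shared by BBC3, PMAIP1 and BAX.

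Other genes of the mitochondrial pathway were described from 6 lists that name 47 genes. A probe set was available for 42 and 38 were measured, each by 1 probe set. With siRNA 1, 4 were higher by 1.5-fold or more (6.9% of all measured genes were) and 5 lower (6.16% of all). With siRNA 2, 0 were higher (4.75% of all) and 0 lower (4.67% of all). Their median differences were 0.00 in each array, and 15 were higher in both siRNA arrays (34.3% of all genes) against 16 lower in both (32.1% of all).

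Of the 11 other family members 8 were measured, with medians of 0.14 and 0.03. Those of the BH3-only class were nearer the control or lower than the median of the 5 BH3-only members. BCL2L11 differed by -0.13 with siRNA 1 and -0.30 with siRNA 2, BMF by 0.17 and 0.05 and HRK by 0.16 and 0.16. The anti-apoptotic BCL2L2 differed by 0.18 and 0.26. BCL2L12, an atypical member, read 441 with siRNA 1 and 945 with siRNA 2, against 1372 in the control, differences of -1.64 and -0.54 in its single probe set. This was the lowest family member, and siRNA 1 lay well under siRNA 2. BOK, an effector-like member, differed by -0.62 and -0.05. Its remaining 2 probe sets lay between -0.53 and -0.44 with siRNA 1 and between -0.18 and 0.02 with siRNA 2. BCL2L13, a mitochondrial membrane protein with a role in mitophagy, differed by 0.30 and 0.58, whereas the remaining 6 probe sets ranged from -0.39 to 0.19 with siRNA 1 and from -0.23 to 0.33 with siRNA 2.

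Downstream of the mitochondrial pore, 5 of 8 genes of the apoptosome and caspases were measured, with medians of 0.09 and 0.31. The executioner caspase gene CASP6 read 79.6 with siRNA 1 and 76.4 with siRNA 2, against 51.2 in the control, the highest of them. By the mean of both differences CASP2 was the lowest, at -0.51 and -0.19, but its other measured probe set was at -0.09 with each siRNA. CYCS, the cytochrome c gene, was at 0.01 and -0.19. Its other probe sets ranged from -0.51 to 0.35 with siRNA 1 and from -0.77 to -0.75 with siRNA 2. Of the factors that leave mitochondria and the inhibitor of apoptosis proteins, 8 of 9 were measured, with medians of -0.22 and 0.02. BIRC5, which encodes survivin and acts in mitosis as well, read 359 with siRNA 1 and 643 with siRNA 2, against 867 in the control, and its 10 other measured probe sets ranged from -1.68 to -0.17 with siRNA 1 and from -0.72 to 0.01 with siRNA 2. XIAP, the direct caspase inhibitor, differed by 0.64 and 0.26 (0.71 to 0.80 and 0.18 to 0.34 in 2 further probe sets), and DIABLO, whose product counters XIAP, by -0.62 and 0.05. ENDOG, a mitochondrial nuclease gene, differed by -0.57 and -0.11. All of BIRC5, XIAP, DIABLO and ENDOG thus differed by more with siRNA 1 than with siRNA 2.

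The 5 membrane partners were all measured, at medians of -0.23 and -0.07. By the mean of both differences the lowest was VDAC2 (-0.26 and -0.24), a channel that binds BAK1, and the highest VDAC1 (0.04 and -0.09). The 6 genes that set the turnover of the MCL1 protein had medians of 0.18 and 0.14. FBXW7, a ubiquitin ligase subunit for MCL1, read 258 with siRNA 1 and 164 with siRNA 2, against 153 in the control, and the remaining 2 probe sets lay at 0.71 to 0.79 (siRNA 1) and 0.20 to 0.37 (siRNA 2). By the mean of both differences the deubiquitinase gene USP13 was the lowest, at -0.38 and -0.48. Of 8 transcriptional regulators of BH3-only genes 6 were measured, with medians of 0.03 and -0.10. DDIT3, the stress factor CHOP, differed by 0.72 and 0.19 and E2F1 by -1.64 and -0.25, from readings of 65.5 with siRNA 1 and 171 with siRNA 2, against 203 in the control. For DDIT3 and E2F1 siRNA 1 stood apart from the control more than siRNA 2 did. Any part of these regulators in the differences of BH3-only genes was not tested.

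**Figure D5:**
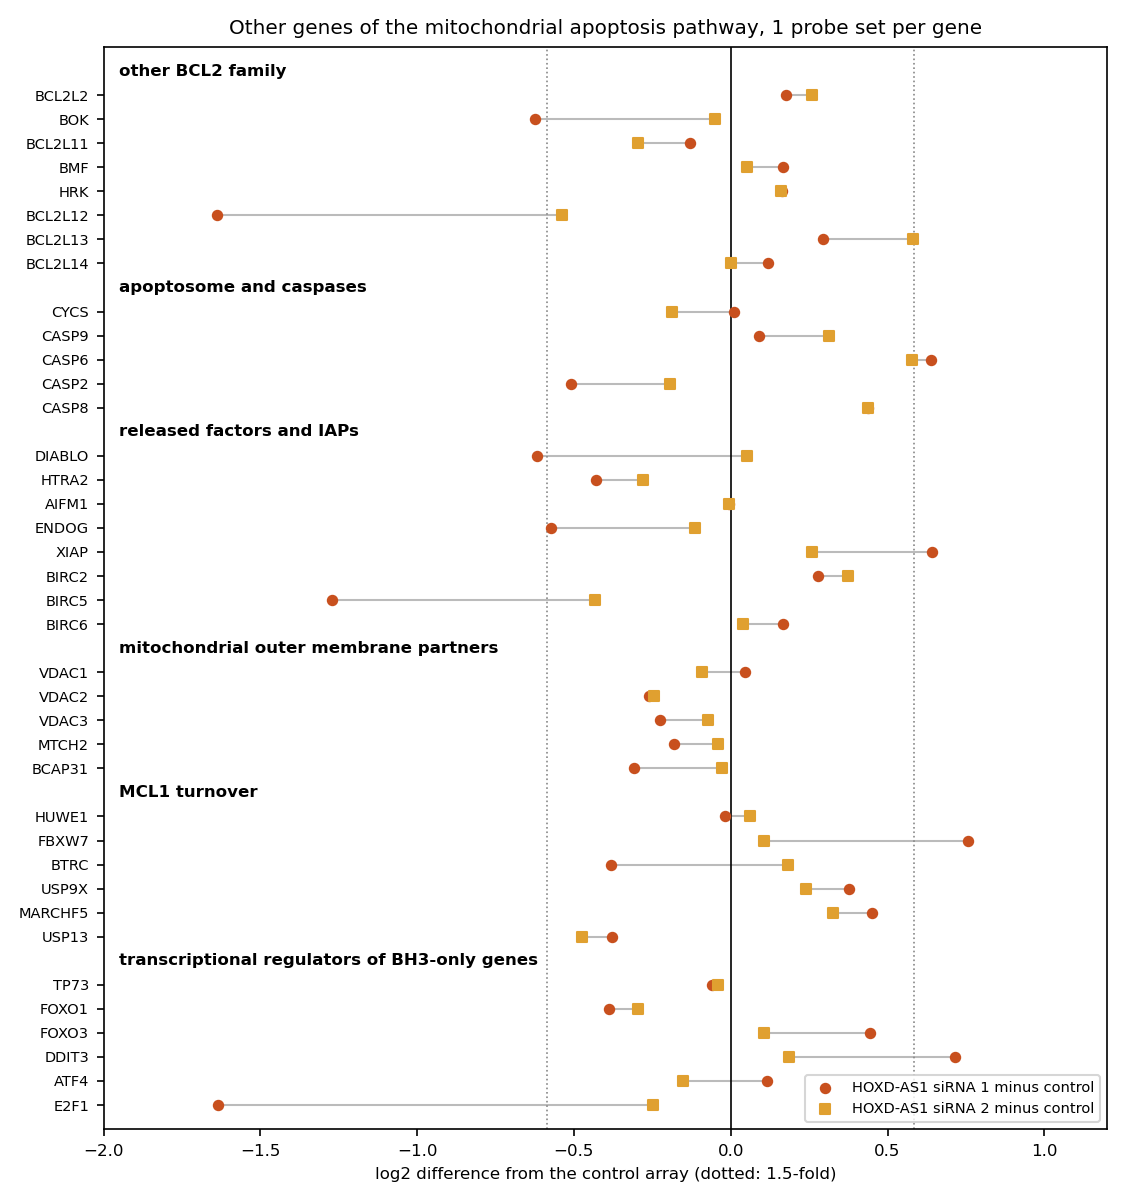
Log2 difference from the control with HOXD-AS1 siRNA 1 (circles) and siRNA 2 (squares) for the 38 measured genes of 6 other lists of the mitochondrial apoptosis pathway, 1 probe set per gene. Dotted lines mark 1.5-fold; 9 circles lie outside them, led by BCL2L12 and E2F1 at -1.64 each, and 0 squares.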

How the data were processed

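Expression was measured on 1 Affymetrix array per group. The deposited table holds linear probe set intensities, made by the authors with GCOS 1.4 per the submitters' processing notes. How background, summarisation and normalization were handled is not given in the sources used here. Sorted log2 values of any 2 arrays differed by at most 0.098, so no further normalization was applied; a shift of most transcripts would not be seen. Of 49388 probe sets, 44988 carried 1 gene symbol, of which 44961 matched RefSeq by Entrez identifier, with 0 symbols updated. For summaries by gene, its probe set of highest average log2 level stood for a gene. With 1 array per group there is no test and no p-value. All member probe sets are named. Of the other lists, the genes named are those measured with a log2 difference of 0.5 or more in size with either siRNA, and the highest and lowest of each list. BCL2L2, BCL2L11, BMF, HRK, CYCS and CASP8 are named outside this rule. Members, lists and rules were chosen with earlier results of these data known. Alternatives covered the floor, the scaling, an offset of 16, the choice of probe sets and the filter. One further promoter motif is not reported here. Counting was tested on simulated data. Python 3.11.15, numpy 2.4.6, pandas 2.3.3 and matplotlib 3.10.9 were used.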

Additional observations from a re-analysis of the deposited data

Results flagged for a closer look

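BID went opposite ways with the siRNAs in all 4 of its probe sets. In the probe set with the highest mean, 11732218_x_at, the difference from the control was 0.31 with siRNA 1 and -0.17 with siRNA 2. With 1 array per group the difference between the siRNAs was not tested. The same direction of opposition in 4 probe sets is 1 observation, since they read the same RNA on the same arrays.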

How the results depend on the processing

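Each value was recomputed with no floor, with the floor at the 25th or 75th percentile, after quantile normalization, after scaling to a common median and as log2(intensity + 16), and, where it applies, with other probe sets, with means over genes and with no filter on dim probe sets. A value counted as moved where it changed by more than 0.20, the median size of the difference between the siRNA arrays, since there are no replicates. Of 420 recomputed member differences 397 moved by less, 23 moved by more, all in dim probe sets or under the highest floor, and 0 that were past 1.5-fold changed sign. For the 26 probe sets above the floor on all 3 arrays, no floor or the lower floor leaves the difference as it was. Many of these recomputed differences therefore could not move. Of 54 recomputed class medians 4 moved, all of the anti-apoptotic genes: 0.24 with siRNA 1 and 0.27 with siRNA 2 as means over probe sets, and -0.073 and -0.033 with plain probe sets only, which leaves out 11739958_x_at of BCL2L1 and 11715483_s_at of MCL1. The sign of BH3-only and of effector minus anti-apoptotic medians turned with plain probe sets only, to 0.50 and 0.25 and to 0.29 and 0.46, a comparison added after seeing the data. On the anti-apoptotic side it rests on 11739957_a_at of BCL2L1 and 11715485_a_at of MCL1, and the other measured plain sets of both genes were higher with both siRNAs. Of 96 recomputed counts 3 moved by over 1.5 times. Most of the 96 belong to counts that were 0 as reported and stayed 0 in every setting. Upward 1.5-fold differences with siRNA 1 came to 6 member probe sets after scaling to a common median (7.05% of all measured probe sets), in place of 3 (6.57%). Under the highest floor, at the 75th percentile, they came to 1 (5.88% of all), with fewer member probe sets measured. Those with both siRNAs came to 1 there (1.46% of all), in place of 2 (1.59%). With the common median the added 3 are the probe sets of PMAIP1, BCL2L1 and MCL1 that lay just short of the threshold. No paired analysis was possible because each group held 1 array, and no replicate could be left out. Precision is limited by the number of arrays, and BCL2 could not be read above the floor.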

Other observations

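Some probe sets held exactly the same deposited value on 2 arrays: 817 on the siRNA 1 and siRNA 2 arrays, 644 on the siRNA 1 and control arrays and 797 on the siRNA 2 and control arrays, of 49388. Among the family, BCL2 11738350_a_at read 20.7 with siRNA 1 and exactly the same with siRNA 2, under the floor. Among the pathway genes, CASP8, the initiator caspase of death receptors, read 35.8 on both siRNA arrays, against 26.4 in the control.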
